A study of Mus musculus with 9 samples.

Results

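The expression of each gene in heterozygous *Mir96* Dmdo hair cells (HCs) was compared with the midpoint between wild-type and homozygous mutant HCs. A gene whose expression follows the number of Dmdo alleles in equal steps lies at this midpoint, and the distance from it, the departure, was taken as heterozygous minus the mean of the wild-type and homozygous levels on the log2 scale. To be tested, a gene needed a minimum of 20 reads in 2 libraries of the same genotype, a condition met by 15184 of 43808 genes (34.7%). All 9 libraries of the study entered the comparison.

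The libraries are bulk RNA-seq of cochlear and vestibular HCs from mice at postnatal day 1, with 1 library per mouse. The groups were wild-type (Mir96+/+; mice 44, 55 and 59), heterozygous (Mir96+/Dmdo; mice 45, 48 and 51) and homozygous mutant (Mir96Dmdo/Dmdo; mice 43, 46 and 47). Every mouse carried the *Atoh1*/nGFP transgene, which puts green fluorescent protein into the nuclei of HCs, and cells positive for this reporter and for the epithelial surface protein CD326 were sorted. The Dmdo allele came from C3HeB/FeJ mice and the reporter from C57BL6 mice, so the libraries are from a mixed background, and auditory and vestibular HCs are pooled in each.

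HCs turn sound and head movement into electrical signals through a bundle of stereocilia at their apex and pass them to neurons at ribbon synapses. miR-96 is a microRNA of sensory cells that lowers the level of transcripts whose 3′ untranslated region (3′ UTR) pairs with its seed, and point mutations in the seed cause progressive hearing loss in heterozygotes. A mutated seed can act in 2 ways, since targets of the normal seed may be released and transcripts that match the changed seed may be repressed. In the mature miR-96 below, capitals mark the seed, bases 2 to 8 from the 5′ end. It is printed because the Dmdo substitution, A7U, lies in it.

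mmu-miR-96-5p: uUUGGCACuagcacauuuuugcu

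The sequence is from RefSeq (GRCm38.p6, chromosome 6, 30169506 to 30169528, minus strand). The normal seed pairs with GTGCCAA in a 3′ UTR and the Dmdo seed with GAGCCAA. Counts at *Mir96* itself do not check the genotypes, because the base change leaves the locus in place and small RNA was not the target of library preparation. *Mir96* was at 0.0916, 7.63 and 28.9 CPM (counts scaled by library size and TMM factor) in wild-type, at 0, 8.97 and 2.4 in heterozygous and at 0.0695, 0.276 and 0.0636 in homozygous mutant HCs, so that the genotypes overlapped.

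Total counts were 19677015 to 28486252 in wild-type, 29470207 to 34873964 in heterozygous and 18175317 to 30932531 in homozygous mutant libraries, so the heterozygous libraries were on average the deepest. The 6 HC markers (*Atoh1*, *Pou4f3*, *Gfi1*, *Myo7a*, *Myo6* and *Epcam*) summed to 5266 to 6865 CPM in wild-type, 5391 to 6150 in heterozygous and 4275 to 5396 in homozygous mutant libraries. Neuron markers summed to 73.2 to 135 CPM in wild-type, 65.1 to 79.4 in heterozygous and 41.0 to 49.1 in homozygous mutant libraries, where the homozygous mutants lay apart from the others. Of 5 red blood cell markers, all were at 0 in every library. Mesenchyme markers summed to 51.9 to 749 CPM with the highest value in homozygous mutant 46, and Schwann cell markers to 101 to 334, again highest in homozygous mutant 46. The quality weight from limma was lowest for wild-type 59 (0.548) and next lowest for homozygous mutant 46 (0.602). The paper reports lower RNA integrity for a wild-type and a homozygous mutant replicate. Its sorted cell numbers reached lowest in homozygous mutants and highest in heterozygotes. The part of RNA integrity and cell number in the results was not tested. *Xist* had more counts than the Y-linked *Ddx3y* in wild-type 44 and 59 and in heterozygous 48. Mouse numbers of 47 and lower were held by all homozygous mutants but by only wild-type 44 and heterozygous 45 among the others, and what the numbers stand for is not stated in the labels.

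No gene passed the test for a departure from the midpoint. With edgeR's quasi-likelihood test, 0 genes (0%) were called higher and 0 (0%) lower at a false discovery rate (FDR, Benjamini-Hochberg) under 10% and a fold change above 1.5, and the smallest adjusted p was 1.00. At an unadjusted p under 0.05, 290 genes (1.91%) were above the midpoint and 214 (1.41%) below it, together 3.32% of the genes tested. DESeq2 called 0 genes (0%) higher and 16 lower (0.105%), and limma-voom with quality weights called 0. The median 95% interval of a departure reached 1.07 to either side on the log2 scale over all genes and 0.802 over the 10709 genes with a mean CPM of 10 or more.

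The route by which a gene passed the read filter set much of this split. Of the 290 genes above the midpoint at an unadjusted p under 0.05, 208 belonged to the 787 genes that passed through heterozygous libraries alone, where none of the 787 was below it. Of the 894 genes that passed without the heterozygous libraries, 106 were below the midpoint and 1 was above. Such genes had to differ, so these counts describe the filter. Among the 12333 genes that passed in all 3 genotypes, 60 were above and 108 below, together 1.36%. Apart from *Pgap3*, each gene that DESeq2 called lower had passed without the heterozygous libraries. *1700003N22Rik*, a processed pseudogene that can share reads with its parent gene, was at 0.0279 to 0.0327 CPM in heterozygous HCs, at 4.28 to 12 in wild-type and at 0.8 to 15.9 in homozygous mutants. *Krt19*, a keratin of simple epithelia, was at 0 to 0.0279 CPM in heterozygous HCs and at 46.6 CPM in homozygous mutant 46, against 0.0916 to 2.63 in the 5 other libraries. *Tgfbi*, a secreted matrix protein, was likewise at 0.131 to 1.06 CPM in heterozygous HCs and highest, at 75.6 CPM, in homozygous mutant 46. *Pgap3*, the exception, was at 5.62 CPM or more in every library.

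Genes that differ between the homozygotes are the ones for which the place of the heterozygotes can be read. By edgeR, 139 genes (0.915%) had lower and 36 (0.237%) higher expression in homozygous mutants than in wild-type. These 175 calls rested on the fit, with 12 left when *Xist* above *Ddx3y* was a term, 25 when mouse numbers were, and 20 to 697 when single libraries were left out. All homozygous mutants but only wild-type 55 among the wild-type mice had more *Ddx3y* than *Xist*, so these differences cannot be fully told apart from genotype. With 3 libraries per genotype and an equal spread in wild-type and homozygous mutants, this difference is orthogonal to the departure. Choosing genes by it then does not set the sign of the departure. Whether the spread was equal was not tested, so the choice of genes may favor a sign. Heterozygous HCs lay between the homozygous means in CPM for 138 of the 139 lower and 35 of the 36 higher genes, against 46.8% of all genes tested. These genes were chosen for homozygous means that lie far apart, which by itself favors a place between them. Of the lower genes, the heterozygotes differed at an unadjusted p under 0.05 from homozygous mutants alone for 81, from wild-type alone for 35, from both for 20 and from neither for 3. Of the higher genes the same counts were 20, 10, 4 and 2. Over all genes tested, 5.84% differed from homozygous mutants alone, 3.57% from wild-type alone, 0.948% from both and 89.6% from neither. Failing that threshold does not show equality with a homozygote. Only 5 lower and 1 higher genes had an unadjusted p under 0.05 for a departure toward wild-type. For a departure toward the homozygous mutants there were 1 lower gene and 0 higher genes. Over all genes tested, 3.32% had such a p for a departure in either direction, and these counts are near that share.

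**Figure D1:**
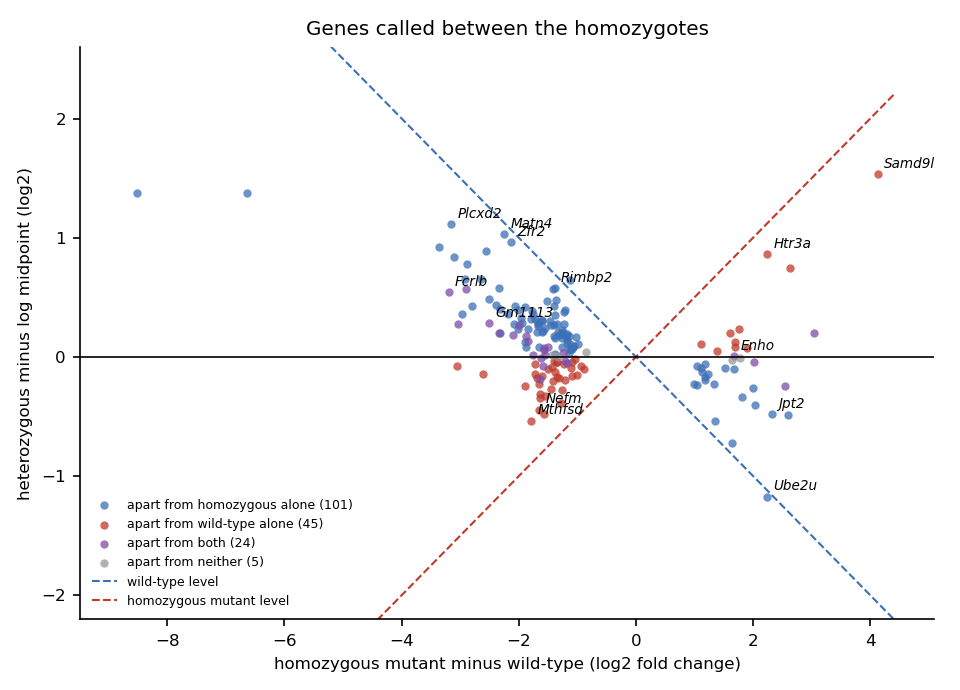
Departure of the heterozygotes from the log midpoint (y axis, log2) against the homozygous mutant minus wild-type difference (x axis, log2 fold change) for the 175 genes called between the homozygotes. Points are genes, colored by the homozygote from which the heterozygotes differed at an unadjusted p under 0.05, and the dashed lines mark where a gene would lie with heterozygotes at the wild-type or the homozygous mutant level. More of the lower genes lie above 0, toward wild-type (98 of 139), than below.

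The median departure was 0.17 on the log2 scale over the lower genes and -0.09 over the higher genes, where the median of all genes tested was 0.00. On this scale 98 of the 139 lower genes (70.5%) were above the midpoint and 24 of the 36 higher genes were below it, which is the wild-type side in both. This side depended on the scale. Against the midpoint of the CPM means themselves, 52 of the 139 lower genes (37.4%) and 4 of the 36 higher genes (11.1%) were above, while 44.1% of all genes were, and the median ratio to that midpoint was 0.966 for lower and 0.825 for higher genes. Thus on linear CPM the heterozygotes were nearer to homozygous mutants for most lower genes and nearer to wild-type for most higher genes. The linear midpoint lies above the log midpoint wherever the homozygotes differ, so a shift in this direction follows from the scale. Over all genes tested the median ratio was 0.959, close to that of the lower genes.

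The heterozygous libraries did not agree on the side either. Over the lower genes the median departure on log2 CPM was -0.23 in heterozygous 45, 0.43 in heterozygous 48 and 0.27 in heterozygous 51. Over the higher genes it was 0.21, -0.19 and -0.22. Heterozygous 45 was on the homozygous mutant side in both sets and the other libraries on the wild-type side, while over all genes the same libraries had medians of 0.11, 0.13 and 0.10. Heterozygous 45 shares the lower mouse numbers with the homozygous mutants. With these numbers as a term in the model, 77 of the same 139 lower genes were on the homozygous side (median -0.03). So were 22 of the same 36 higher genes (median 0.06). The counts and medians thus changed side, but both medians were small. This term set every homozygous mutant, wild-type 44 and heterozygous 45 apart from the other mice. Among the 25 genes that this fit itself called, the lower genes had a median of 0.11, still on the wild-type side. The higher genes among these 25 were few, and their median of 0.08, on the homozygous side, rests on them alone. The part of the mouse numbers in the side taken by the heterozygotes was not tested.

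**Figure D2:**
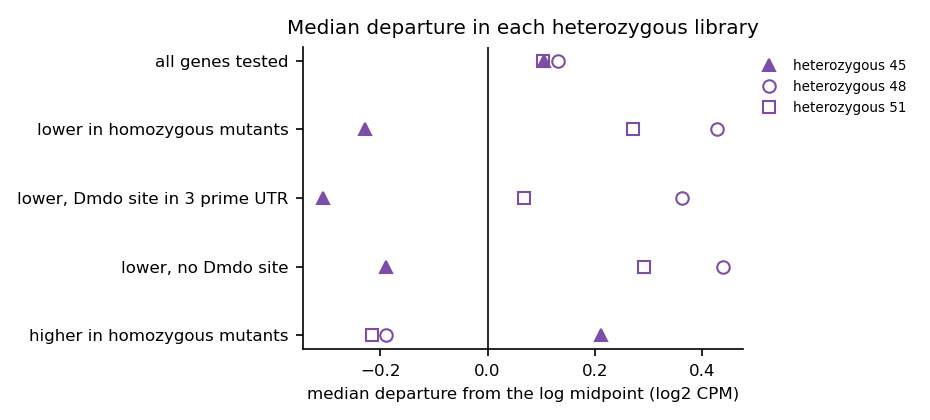
Median departure from the log midpoint (x axis, log2 CPM, prior count 2) in each heterozygous library, for all genes tested, for the 139 genes lower and the 36 genes higher in homozygous mutants, and for the lower genes with and without a match to the Dmdo seed in the 3′ UTR. The filled triangle is heterozygous 45, which lies at -0.23 for lower genes, while heterozygous 48 (circle) and 51 (square) lie at 0.43 and 0.27.

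Of the 139 lower genes, those named next had the smallest p for a departure toward the homozygous level, where a dominant allele would leave them. This choice by itself favors a place near that level, so these genes do not show that a dominant class exists. The higher genes named below for each side were chosen in the same way. *Nefm*, the medium chain of neurofilaments, was at 1067, 1399 and 1451 CPM in wild-type, at 446, 616 and 567 in heterozygous and at 313, 488 and 449.9 in homozygous mutant HCs. The heterozygous libraries were all below wild-type and overlapped the homozygous mutants, with a departure of -0.44 (standard error 0.21, unadjusted p = 0.0497 from edgeR). It was the single called gene past that threshold on the homozygous side. The neuron marker sum given above was likewise lowest in homozygous mutants, and its part in this result was not tested. *Mthfsd*, a methenyltetrahydrofolate synthetase domain gene, was at 131, 59.5 and 197 CPM in wild-type, 48.8, 43.4 and 51.8 in heterozygous and 32.1, 34.8 and 45.1 in homozygous mutant HCs. Its heterozygous libraries overlapped only the homozygous mutants, and the departure was -0.53 (standard error 0.34, unadjusted p = 0.135).

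*Slc25a23*, a mitochondrial carrier of ATP and phosphate, was at 178, 205 and 204 CPM in wild-type, 37.4, 109.9 and 97.5 in heterozygous and 53.5, 53.5 and 91.7 in homozygous mutant HCs. Heterozygous 45 was the lowest of all 9 libraries, and the departure was -0.48 (standard error 0.31). *Anp32b*, a histone chaperone, was at 160.3, 134 and 212 CPM in wild-type, 108, 74.1 and 67 in heterozygous and 84.2, 48 and 77.4 in homozygous mutant HCs, a departure of -0.39 (standard error 0.28). *Ppm1h*, a protein phosphatase, was at 227, 169 and 144 CPM in wild-type, 81.1, 79.7 and 80.3 in heterozygous and 41.3, 93.4 and 39.5 in homozygous mutant HCs, a departure of -0.35 (standard error 0.30). In all of these genes the heterozygous libraries lay below every wild-type library and overlapped the homozygous mutants, but the 95% intervals of the departures of *Mthfsd*, *Slc25a23*, *Anp32b* and *Ppm1h* held 0.

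Among higher genes, *Htr3a*, a subunit of the serotonin-gated ion channel, was at 17.5, 12.8 and 10.2 CPM in wild-type, 23.6, 68.1 and 68.1 in heterozygous and 71.7, 25.1 and 93.8 in homozygous mutant HCs. Its heterozygous libraries exceeded wild-type and overlapped the homozygous mutants, with a departure of 0.86 (standard error 0.43, unadjusted p = 0.0566 from edgeR). *Samd9l*, an interferon-induced gene, ran from 0.714 to 2.12 CPM in wild-type, 5.1 to 26.4 in heterozygous and 8.49 to 28.4 in homozygous mutant HCs (departure 1.53, standard error 0.80). *Fam136a*, a mitochondrial protein gene, ran from 3.49 to 9.3, 17.2 to 37.3 and 26.3 to 44.3 CPM in the same order (departure 0.75, standard error 0.53). *Eef1a2*, a translation elongation factor of neurons and muscle, was at 47.7 to 93.5, 105 to 201 and 182 to 247 CPM, a departure of 0.24 (standard error 0.27). *Sec11c*, a subunit of the signal peptidase, had a departure of 0.20 (standard error 0.35), with overlap of the heterozygotes with both homozygotes. For *Eef1a2* and *Sec11c* the heterozygous mean was 0.989 and 0.991 of the linear midpoint, so that no side can be given.

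The next lower genes had the smallest p for a departure toward wild-type, where a recessive allele would leave them. Here too the choice by itself favors a place near that level, so these genes do not show that a recessive class exists. *Zfr2*, a zinc finger gene, was at 60.3, 151 and 140.4 CPM in wild-type, 65.9, 166 and 96.4 in heterozygous and 28.8, 26.4 and 25.4 in homozygous mutant HCs. The heterozygous libraries overlapped wild-type and exceeded every homozygous mutant, with a departure of 0.96 (standard error 0.32, unadjusted p = 0.0072 from edgeR). *Sema6d*, a semaphorin of axon guidance, was at 177, 167 and 184 CPM in wild-type, 206, 198 and 155 in heterozygous and 69.7, 74.3 and 98.6 in homozygous mutant HCs (departure 0.64, standard error 0.23, unadjusted p = 0.00954 from edgeR). Here too only wild-type was overlapped. *Sema6d* was listed here as a target of miR-96, but its longest annotated 3′ UTR held no match to the normal seed. *Rimbp2*, which ties calcium channels to vesicle release at the ribbon synapse, was at 133, 215 and 210.2 CPM in wild-type, 135, 219.7 and 161 in heterozygous and 83.1, 51.6 and 78.8 in homozygous mutant HCs (departure 0.58, standard error 0.25, unadjusted p = 0.0331).

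*Matn4*, a matrilin of the extracellular matrix, was at 159.6, 332 and 306 CPM in wild-type, 79.9, 344 and 323 in heterozygous and 76.5, 59.3 and 31.6 in homozygous mutant HCs. Heterozygous 45 was at the homozygous mutant level and the other heterozygotes at the wild-type level, with a departure of 1.03 (standard error 0.39, unadjusted p = 0.0179 from edgeR). *Plcxd2*, a phospholipase-like gene, was at 67.2, 66.8 and 47.7 CPM in wild-type, 42, 46.6 and 43 in heterozygous and 15.3, 1.16 and 3.88 in homozygous mutant HCs (departure 1.11, standard error 0.51, unadjusted p = 0.0416). Its heterozygous libraries lay apart from both homozygotes and close to wild-type. These 5 genes were above the midpoint on linear CPM as well, at 1.3 times that midpoint or more.

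Of the higher genes, *Ube2u*, a ubiquitin-conjugating enzyme, was at 12.4, 10.2 and 25.3 CPM in wild-type, 24.5, 6.99 and 14.8 in heterozygous and 46.3, 121 and 59.7 in homozygous mutant HCs. The heterozygotes overlapped wild-type and were below every homozygous mutant (departure -1.17, standard error 0.50, unadjusted p = 0.028 from edgeR). *Jpt2*, a microtubule-associated protein gene, was at 12.6 to 17.6 CPM in wild-type, 22.5 to 25.3 in heterozygous and 58 to 91.8 in homozygous mutant HCs, a departure of -0.48 (standard error 0.38) with no overlap between any of the genotypes. *Rpl15*, a protein of the large ribosomal subunit, ran from 23.9 to 44.4, 40.7 to 55.2 and 101 to 120.4 CPM (departure -0.34, standard error 0.32). The departures of the pseudogenes *Rpl39-ps* and *Gm6436* were -0.73 (standard error 0.36) and -0.53 (standard error 0.31), and both can share reads with their parent genes.

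**Figure D3:**
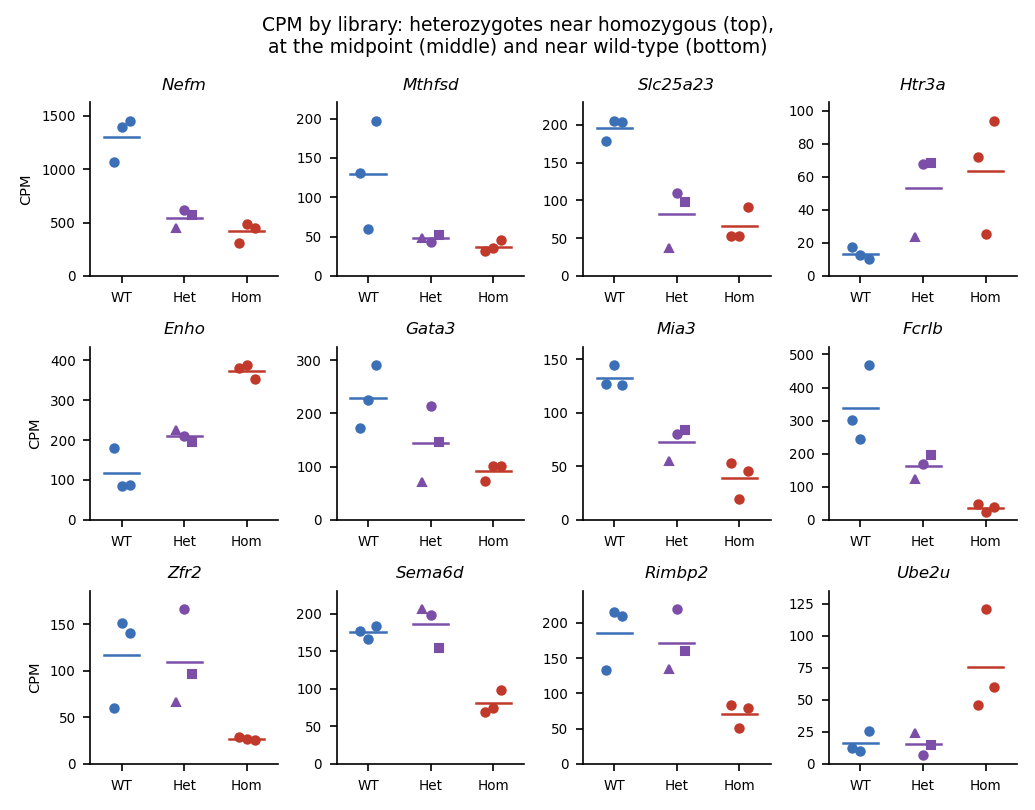
CPM in each of the 9 libraries (y axis, linear, from 0) for 12 genes called between the homozygotes, with genotypes on the x axis (WT wild-type, Het heterozygous, Hom homozygous mutant), each mouse as a point and each genotype mean as a bar. Triangles mark heterozygous 45, circles 48 and squares 51. In *Nefm* all 3 heterozygous mice (446 to 616) lie below the wild-type mice (1067 to 1451), whereas in *Zfr2* all 3 (65.9 to 166) lie above the homozygous mutants (25.4 to 28.8).

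The smallest departures belonged to genes that moved in even steps with the alleles. *Enho*, which encodes the secreted peptide adropin, was at 181, 84.2 and 86.3 CPM in wild-type, 226, 209.8 and 196 in heterozygous and 379.9, 388 and 354 in homozygous mutant HCs, with no overlap between genotypes. Its departure was 0.01 (standard error 0.24, 95% interval -0.50 to 0.51). *Mia3*, a cargo receptor for collagen export from the endoplasmic reticulum, was at 127, 145 and 126, then 55.2, 80.7 and 83.5, then 53.1, 19.1 and 46 CPM, also without overlap (departure 0.02, 95% interval -0.64 to 0.67). *Bmp7*, a bone morphogenetic protein, was at 102 to 126, 55 to 98.6 and 25 to 51.3 CPM (departure 0.02, 95% interval -0.64 to 0.67).

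A departure near 0 did not always mean that the heterozygous libraries sat together. *Gata3*, a transcription factor of the developing ear, was at 173, 225 and 291 CPM in wild-type, 71.4, 214 and 147 in heterozygous and 72.3, 101 and 100.4 in homozygous mutant HCs. Heterozygous 45 was below all homozygous mutants and heterozygous 48 was within the wild-type range, and the departure of -0.00 (standard error 0.29) averaged over them. *Msi1*, an RNA-binding protein of neural progenitors, was also spread, at 59.7, 131 and 96.3 CPM in heterozygous HCs (departure -0.01, standard error 0.33). Wild-type ran from 85.5 to 261 and homozygous mutants from 41.1 to 67.4. Heterozygous 45 was within the homozygous mutant range and the other heterozygotes within the wild-type range. *Gm45837*, whose locus overlaps *Arap1* on the same strand, was at 28.4, 53.4 and 44.8 CPM in heterozygous HCs (departure -0.01, standard error 0.39).

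Both genes with the smallest p between the homozygotes were placed between them by every heterozygous library. *Fcrlb*, an Fc receptor-like gene, was at 301, 245 and 468 CPM in wild-type, 124, 169 and 195 in heterozygous and 47.8, 22.9 and 40.02 in homozygous mutant HCs, with a departure of 0.54 (standard error 0.27, unadjusted p = 0.0538 from edgeR). *Gm1113*, a predicted gene, was at 861, 1062 and 1183, then 326, 639.9 and 613, then 129, 257 and 158 CPM, a departure of 0.28 (standard error 0.25). Both were above the log midpoint and below the linear midpoint, at 0.868 and 0.865 of it.

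3′ UTRs were searched for matches to both seeds after the data had been seen. Of 12980 tested genes with an annotated 3′ UTR, 1358 (10.5%) held GAGCCAA, the match to the Dmdo seed, and 1276 (9.83%) held GTGCCAA, the match to the normal seed, on the strand of the transcript. Over the genes with the Dmdo match the median log2 difference from wild-type was -0.25 in homozygous mutants and -0.19 in heterozygotes, while over all genes with a 3′ UTR these medians were -0.04 and -0.05. Over the genes with the normal match they were 0.09 and -0.01. Both differences share the wild-type libraries. The median departure was -0.01 for the Dmdo match, -0.00 for the normal match and 0.00 for all genes with a 3′ UTR. At an unadjusted p under 0.05, 18 genes with the Dmdo match were above the midpoint and 24 below, and 14 and 12 with the normal match.

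Among the 135 lower genes with a 3′ UTR, 31 (23.0%) held the Dmdo match and 5 (3.7%) the normal match. Of the 31 genes with the Dmdo match, heterozygotes were on the homozygous side of the log midpoint for 14 (45.2%) and on the wild-type side for 17, with a median departure of 0.02. Of the 104 without it they were on the homozygous side for 26 (25.0%), with a median of 0.19. Heterozygotes differed from wild-type alone for 12 of the 31 and for 22 of the 104. The difference was seen in each heterozygous library, with medians of -0.31 against -0.19 in heterozygous 45, 0.36 against 0.44 in 48 and 0.07 against 0.29 in 51, but these libraries are set against the same wild-type and homozygous mutants. Under the 22 other fits the share on the homozygous side ran from 25.8% to 71.0% with the match and from 16.3% to 51.9% without it. The 3′ UTRs with the match were longer (median 2128 against 1027 bases), and the part of length in this difference was not tested. No test was made of it, since the search followed a look at the genes.

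Of the 5 lower genes described above with the smallest p for a departure toward the homozygous level, *Mthfsd*, *Slc25a23*, *Anp32b* and *Ppm1h* held the Dmdo match and *Nefm* held none. Of the 5 with the smallest p for a departure toward wild-type, *Rimbp2* and *Plcxd2* held it. These genes were picked by their p, and over all lower genes with a 3′ UTR the share with the match was 23.0%. The 3′ UTRs of *Mthfsd*, *Slc25a23*, *Anp32b*, *Ppm1h*, *Rimbp2* and *Plcxd2* had 7087, 1771, 506, 4426, 3534 and 5758 bases. The median over the lower genes was 1291, and the part of length was not tested. The stretches around a match are printed below, 5′ to 3′ on the strand of the transcript, with the 7 bases that pair with the Dmdo seed in capitals, so that genes on either side of the midpoint can be compared. *Mthfsd* and *Ppm1h* have 3 matches each, of which the first is shown.

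Mthfsd: agaggctgctGAGCCAAggggttactt

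Slc25a23: tggattctagGAGCCAAgaactctcag

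Anp32b: cccacccaaaGAGCCAAagaatagttc

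Ppm1h: cactgaataaGAGCCAAacacaaagcc

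Rimbp2: ctcatggtgaGAGCCAAgacaaaactt

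Plcxd2: ggctcctatgGAGCCAAgaaccaggtc

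All lie in the last exon of the longest annotated 3′ UTR (GENCODE vM21, GRCm38). They are at chr8:121095743-121095769 (minus strand) for *Mthfsd*, chr17:57044873-57044899 (minus) for *Slc25a23*, chr4:46472262-46472288 (plus) for *Anp32b* and chr10:122941577-122941603 (plus) for *Ppm1h*. Those of *Rimbp2* and *Plcxd2* are at chr5:128760363-128760389 and chr16:45964521-45964547, both on the minus strand. *Mia3* and *Bmp7*, at the midpoint, held 1 match each. A match is a description of the letters and no measure of binding.

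Genes outside both homozygotes were counted from the libraries themselves. In 154 genes (1.01%) all 3 heterozygous libraries were above the 6 others and in 95 (0.626%) all 3 were below. Some genes take such a place without any effect of genotype, and how many was not estimated. These counts therefore do not show that a gene lies outside both homozygotes. Of the 154, 64 had passed the read filter through heterozygous libraries alone and 80 in all 3 genotypes, and of the 95, 79 had passed in all 3. Thinning all libraries to 18175317 counts left 135 above and 105 below.

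*Usp24*, a deubiquitinase, was at 41.6, 33.6 and 45.7 CPM in wild-type, 76.8, 118 and 87.5 in heterozygous and 52.3, 52.6 and 60.6 in homozygous mutant HCs, with every heterozygous library above every other library (departure 1.00, standard error 0.29, unadjusted p = 0.00267). *Stard4*, a sterol carrier, was at 35.4, 29.7 and 41.6, then 93.9, 58.5 and 59.2, then 43.1, 35.1 and 54.6 CPM (departure 0.83, standard error 0.33, unadjusted p = 0.02). The adjusted p of each was 1.00 from edgeR.

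Below the midpoint, *Pgap3*, which remodels the lipid of GPI anchors, was at 25.4, 41.9 and 55.6 CPM in wild-type, 5.62, 9.09 and 13.5 in heterozygous and 23, 27.3 and 37.9 in homozygous mutant HCs. No heterozygous library reached the others, and the departure was -1.88 (standard error 0.53, 95% interval -2.99 to -0.78, unadjusted p = 0.00186 from edgeR). DESeq2 called it (adjusted p = 0.0733). *Stard3*, a cholesterol-binding protein of late endosomes, was at 112, 56.1 and 50.9, then 17.7, 28.6 and 13.9, then 37.6, 56 and 21.3 CPM, below wild-type in every heterozygous library and overlapping the homozygous mutants (departure -1.40, standard error 0.44, unadjusted p = 0.00429).

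*Stard3* and *Pgap3* are neighbours on chromosome 11 of GRCm38, at 98358368 to 98381112 and 98388677 to 98400490. The tested gene between them, *Pnmt*, was near 0 in wild-type and heterozygous HCs (mean 0.0488 and 0.0109 CPM). Of the genes to either side, chosen after their values were seen, *Erbb2* had a departure of -0.04 (standard error 1.06), *Mien1* of -0.18 (standard error 0.33), *Grb7* of -0.88 (standard error 0.59), *Cdk12* of -0.55 (standard error 0.37) and *Med1* of 0.13 (standard error 0.39).

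*Snrpa1*, a protein of the U2 spliceosomal particle, was at 27.4, 21.2 and 59.96 CPM in wild-type, 9.9997, 12.5 and 18.4 in heterozygous and 36.3, 107 and 33.8 in homozygous mutant HCs (departure -1.76, standard error 0.51). *Wdr83os*, a small membrane protein gene that overlaps *Wdr83* on the other strand, was at 53.6, 32.5 and 39.4, then 15, 26.1 and 18, then 67.7, 49.9 and 55.9 CPM (departure -1.32, standard error 0.40). *Txnip*, an inhibitor of thioredoxin that responds to glucose, was at 182, 128 and 151, then 117, 69.2 and 99.2, then 145, 185 and 189.8 CPM (departure -0.78, standard error 0.25). In all 3 the heterozygous libraries were the lowest of the 9. *Zfp84*, a zinc finger gene, was at 22.5, 22 and 41.7, then 7.03, 4.47 and 8.2, then 31.2, 20.9 and 15.4 CPM (departure -1.95, standard error 0.64, unadjusted p = 0.0061 from edgeR), likewise with every heterozygote lowest.

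The gene with the smallest p was high mainly in a single library, although heterozygous 48 also exceeded the 6 others. *Hspa1a*, the stress-inducible HSP70 chaperone, was at 117 CPM in heterozygous 45, 2.82 in heterozygous 48 and 0.112 in heterozygous 51, against 0.104 to 0.54 in the 6 other libraries (unadjusted p = 8.56e-05 from edgeR). *Serpina3h*, annotated as a transcribed pseudogene, was at 4.44, 3.51 and 3.12 CPM in heterozygous HCs and at 0.0552 or less elsewhere. *Dock2*, an activator of Rac in blood cells, was at 2.71, 1.14 and 1.7 CPM in heterozygous HCs and at 0 in all other libraries, and *Man1c1*, a mannosidase of the Golgi, at 3.69, 2.73 and 4.27 against 0.165 or less. All 4 genes, *Hspa1a* included, passed the read filter through heterozygous libraries alone, so they had to be high there.

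**Figure D4:**
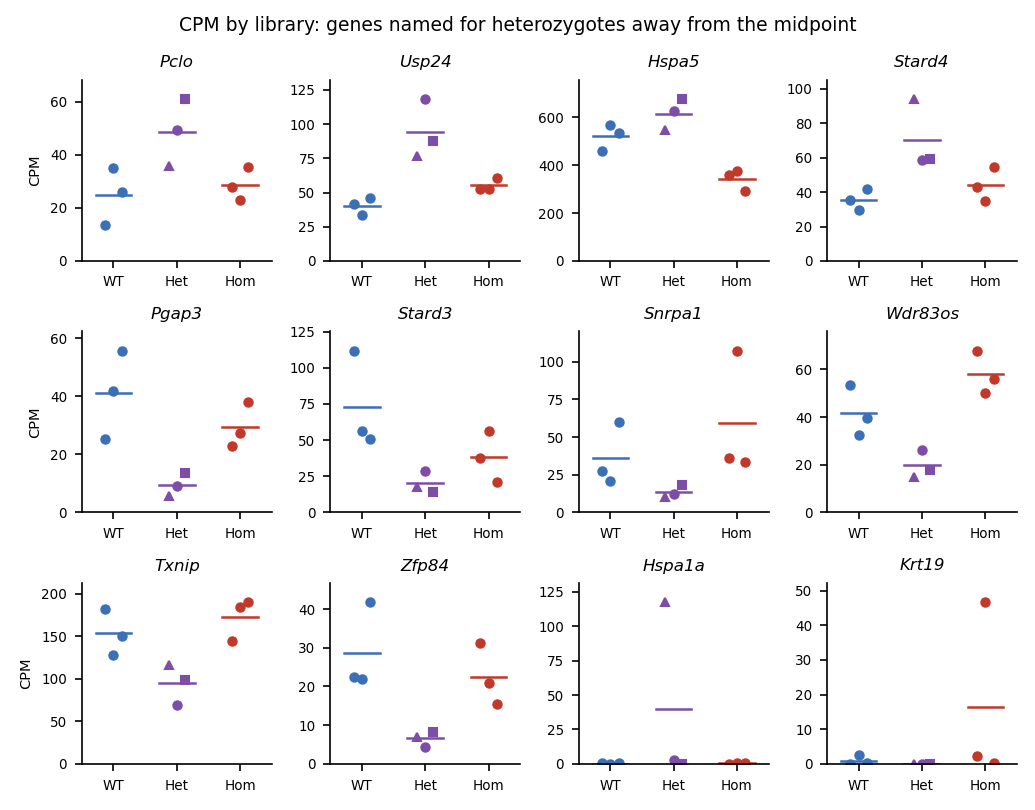
CPM in each of the 9 libraries (y axis, linear, from 0) for 12 genes named for heterozygous levels away from the midpoint, with each mouse as a point and each genotype mean as a bar (WT wild-type, Het heterozygous, Hom homozygous mutant). Triangles mark heterozygous 45, circles 48 and squares 51. In *Usp24* all heterozygous mice (76.8 to 118) lie above the others (33.6 to 60.6), and in *Pgap3* all lie below (5.62 to 13.5 against 23 to 55.6). In *Hspa1a* heterozygous 45 is far above the rest.

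Gene lists were then read by their counts, since no list was tested, beside the 1.91% above and 1.41% below the midpoint over all genes at an unadjusted p under 0.05 and the median departure of 0.00. Of 41 hair bundle genes 26 had a departure above 0 (median 0.13) and 1 was past the threshold, above. *Adgrv1*, an adhesion receptor of the stereocilia, had a departure of 0.36 (standard error 0.23), *Tmc1*, a subunit of the transduction channel, of 0.57 (standard error 0.36), and *Tprn*, a protein of the stereocilia base, of -0.47 (standard error 0.27). Of 22 ribbon synapse and exocytosis genes 15 were above 0 (median 0.11) and 3 were past the threshold, all above. These were *Rimbp2*, *Slc17a8* and *Pclo*.

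*Slc17a8*, the glutamate transporter that fills the vesicles of inner HCs, was at 484, 726 and 867 CPM in wild-type, 795, 683 and 733 in heterozygous and 382, 386 and 507 in homozygous mutant HCs. The heterozygotes overlapped wild-type and exceeded every homozygous mutant (departure 0.44, standard error 0.21, unadjusted p = 0.0462 from edgeR). *Pclo*, the scaffold protein piccolo of the ribbon, was at 13.5, 34.9 and 25.9, then 35.9, 49.5 and 60.9, then 27.7, 23 and 35.6 CPM, with the heterozygotes above all others (departure 0.87, standard error 0.41, unadjusted p = 0.0465). *Cacnb2*, a calcium channel subunit, also had its heterozygotes highest, at 80.9 to 99.8 CPM against 60.2 to 72.2 in wild-type and 38.4 to 74.6 in homozygous mutants (departure 0.52, standard error 0.29). The processed pseudogene *Gm13268*, at a mean of 134 CPM, overlaps *Cacnb2* on the other strand.

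Of 21 genes for calcium handling and ion channels, 8 were lower in homozygous mutants, and 13 of the 21 had a departure above 0 (median 0.16), with none past the threshold. *Slc24a3*, a sodium-calcium exchanger, was at 123, 84.5 and 213, then 77.4, 108 and 93.9, then 20.8, 31.1 and 31.5 CPM (departure 0.58, standard error 0.30), and *Ocm*, the calcium buffer of outer HCs, at 145, 74.4 and 144, then 97.1, 45.1 and 66.1, then 20.3, 7.57 and 19.996 (departure 0.66, standard error 0.36). In both the heterozygotes overlapped wild-type and exceeded the homozygous mutants, but on linear CPM *Ocm* was at 1.01 and *Slc24a3* at 1.11 times the midpoint. *Kcnma1*, the BK potassium channel, had the other sign, with 57.6, 65.2 and 74.6, then 32, 36.4 and 26.3, then 30.3, 53.1 and 32.9 CPM (departure -0.68, standard error 0.36).

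Of 26 HC transcription factor genes 11 were above 0 (median -0.03) and none was past the threshold. The smallest p were those of *Eya1*, which acts early in ear development (departure 0.34, standard error 0.21), *Lhx3*, a LIM homeobox factor of HCs (-0.32, 0.20), and the corepressor *Skor1* (-0.34, 0.22). *Lhx3* was at 398 to 450.1 CPM in heterozygous HCs, below every wild-type (497 to 641) and homozygous mutant library (454 to 602). Of 15 genes listed as experimentally supported targets of miR-96, 9 were above 0 (median 0.09), and *Sema6d* alone was past the threshold. The median homozygous mutant minus wild-type difference of this list was -0.64, lower and not higher in homozygous mutants.

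**Figure D5:**
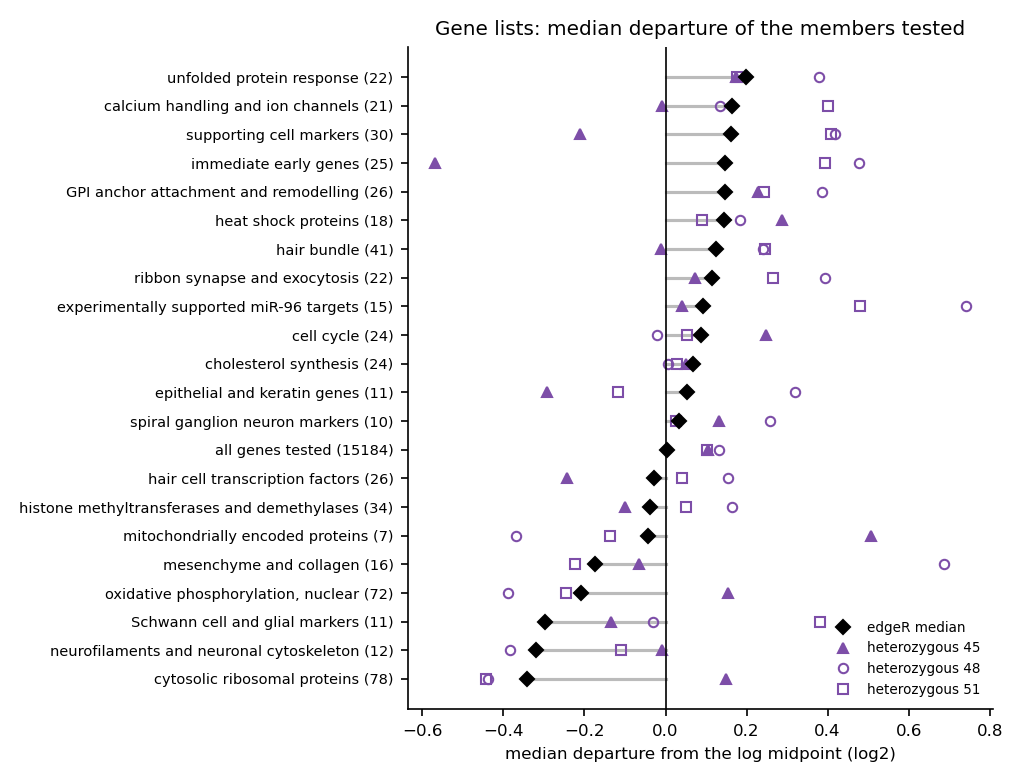
Median departure from the log midpoint (x axis, log2) of the tested members of each gene list, with the number tested in parentheses. Black diamonds are medians of edgeR's departures, and purple symbols are medians of log2 CPM (prior count 2) in heterozygous 45 (filled triangle), 48 (circle) and 51 (square), for which the median over all genes is 0.10 to 0.13. Cytosolic ribosomal proteins lie lowest (-0.34), with heterozygous 45 at 0.15 and the others at -0.44.

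Of 78 cytosolic ribosomal protein genes 9 had a departure above 0, and the median was -0.34, with 3 past the threshold, all below. *Rpl13* was at 129, 58.2 and 75.7, then 84, 58.6 and 68, then 124, 146 and 149.8 CPM (departure -0.66, standard error 0.29, unadjusted p = 0.0352 from edgeR). *Rpl31* was at 21.3, 7.34 and 18.5, then 10.9, 6.57 and 10.4, then 60.4, 59 and 24.3 CPM (departure -1.56, standard error 0.57, unadjusted p = 0.0122). In both the heterozygotes overlapped wild-type and were below the homozygous mutants in every library.

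The ribosomal genes summed to 5803 to 14334 CPM in wild-type, 7140 to 12145 in heterozygous and 14389 to 16314 in homozygous mutant HCs. The median departure of the list was 0.15 in heterozygous 45, -0.44 in 48 and -0.44 in 51, so the sign rested on the latter. Of 72 nuclear genes of oxidative phosphorylation 16 were above 0, with a median of -0.21, 1 past the threshold on each side, and the same split between libraries (0.15, -0.39 and -0.25). *Cox6a1*, a subunit of cytochrome c oxidase, was at 502, 219.5 and 250.1, then 272, 171 and 261, then 331, 362 and 414 CPM (departure -0.56, standard error 0.26, unadjusted p = 0.0435 from edgeR), and *Ndufb4* was at 1.31 to 4.49 CPM in heterozygous HCs and at 0.183 or less elsewhere, having passed the read filter through heterozygous libraries alone. Ribosomal protein genes have many pseudogenes, so their counts depend on how shared reads were handled. Of 7 mitochondrially encoded genes 3 were above 0 (median -0.04).

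Of 22 unfolded protein response genes 16 were above 0 (median 0.20), with *Hspa5* alone past the threshold. Of 18 heat shock protein genes 16 were above 0 (median 0.14), with *Hspa5* past the threshold above, *Hspa2* below, and *Hspa1a* above after passing the read filter through heterozygous libraries alone, where it was high in heterozygous 45. *Hspa5*, the main chaperone of the endoplasmic reticulum, was at 459.6, 569.7 and 535 CPM in wild-type, 548, 625 and 675 in heterozygous and 358, 378 and 293 in homozygous mutant HCs. The heterozygotes exceeded every homozygous mutant and overlapped wild-type (departure 0.54, standard error 0.19, unadjusted p = 0.0102 from edgeR). *Hspa2*, an HSP70 protein and the heat shock protein gene past the threshold below, was at 275, 322 and 226, then 225, 270.1 and 289, then 444, 503 and 541 CPM (departure -0.50, standard error 0.21, unadjusted p = 0.0272 from edgeR). *Atf6* and *Ern1*, sensors of unfolded protein, had departures of 0.35 (standard error 0.22) and -0.77 (standard error 0.56).

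Of 24 cholesterol synthesis genes 14 were above 0 (median 0.07), with *Stard4* and *Idi1* past the threshold. *Idi1*, an isomerase of the mevalonate pathway, was at 0.275, 0.9 and 0.165, then 10.5, 3.81 and 8.73, then 2.68, 0.0552 and 0.127 CPM, and passed the read filter through heterozygous libraries alone. Of 34 histone methyltransferase and demethylase genes 16 were above 0 (median -0.04) and *Kdm2b* alone was past the threshold. It was at 37.4, 36.9 and 37.5, then 12.3, 15.4 and 15.3, then 21.3, 42.7 and 16 CPM, the heterozygotes below all others (departure -1.14, standard error 0.50, unadjusted p = 0.034 from edgeR). Of 26 genes of GPI anchors 16 were above 0 (median 0.15) and *Pgap3* alone was past the threshold. Of 12 neurofilament and neuronal cytoskeleton genes 3 were above 0 (median -0.32), with *Nefm* alone past it. Of 24 cell cycle genes 13 were above 0 (median 0.09). *Birc5* was past the threshold at 2.34 CPM or less outside homozygous mutant 47, and *Cdkn1a*, an inhibitor of cyclin-dependent kinases, had a departure of -0.48 (standard error 0.25). Of 25 immediate early genes 18 were above 0 (median 0.15), with medians of -0.57 in heterozygous 45, 0.48 in 48 and 0.39 in 51.

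Markers of other cells were read in the same way. Of 30 supporting cell genes 19 were above 0 (median 0.16), with *Matn4* alone past the threshold, and their medians were -0.21, 0.42 and 0.41 in heterozygous 45, 48 and 51. *Gjb2*, a gap junction protein of supporting cells, had a departure of 0.46 (standard error 0.24). Of 11 epithelial and keratin genes 6 were above 0 (median 0.05), with *Cdh1* past the threshold above and *Krt19* below. *Cdh1*, the epithelial cadherin, was at 139 CPM in heterozygous 45 but at 456 and 412 in 48 and 51, against 179 to 299 in the 6 other libraries (departure 0.64, standard error 0.29). Of 11 Schwann cell and glial genes 4 were above 0 (median -0.30), with 1 past the threshold on each side. Of 16 mesenchyme genes 5 were above 0 (median -0.17), with *Col3a1* alone past the threshold, which was at 216 CPM in homozygous mutant 46 against 3.42 to 53 elsewhere. Their part in the departures of other genes was not tested, and fewer cells of a type and less RNA per cell cannot be told apart in bulk libraries. Of 10 spiral ganglion neuron genes 5 were above 0 (median 0.03). Blood cell, endothelial and melanocyte lists had 3 or 4 members tested.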

How the data were processed

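RNA of sorted HCs was sequenced by the authors in 9 libraries, mapped on GRCm38 using HISAT2 2.0.4, with HTSeq for the counts of each gene. The authors deposited raw counts without normalization, and each library was assigned to its genotype through its label. Whether HTSeq used strand is not stated in these sources, so genes that overlap on opposite strands may share counts. Such pairs include *Nefm* and *Nefl*, *Wdr83os* and *Wdr83*, *Kdm2b* and *Rnf34*, *Rpl31* and *Tbc1d8*, and *Cacnb2* and *Gm13268*. No 2 libraries of a genotype were alike within sampling noise, as chi-square per gene was 103 to 254 between them and would be about 1 from sampling alone.

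One edgeR 4.0.16 quasi-likelihood fit of all 9 libraries (robust dispersion, TMM) gave the departure and the other differences, with standard errors and 95% intervals, and BH adjustment over the 15184 genes tested. CPM are scaled by TMM factors, and departures of single libraries are on log2 CPM with a prior count of 2. The p-values measure the spread between these mice. Alternatives were DESeq2 1.42.0, limma-voom 3.58.1, sva 3.50.0, other scalings and filters, thinned counts, a linear midpoint and left-out libraries. R 4.3.3 and Python 3.11.15 (pandas 2.3.3) were used, with GENCODE vM21 gene models.

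Members, lists and the rule for named genes were chosen with earlier results of these data known. The rule took the 12 smallest p for the departure per direction, up to 5 genes per side among genes called between the homozygotes, the 6 smallest departures, the 8 smallest p per direction outside all other libraries, up to 4 per list, and *Mir96*, *Fcrlb*, *Gm1113* and *Nefm*. A subset of these is printed, and some genes are not reported here. The linear counts and the seed search were added after the data were seen.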

Additional observations from a re-analysis of the deposited data

How the results depend on the processing

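The paper calls its wild-type controls littermates, but the labels do not give the litter of a mouse, so no paired analysis was made. Departures called were 0 by edgeR, 16 with DESeq2, 8 without the read filter and 0 to 1 when single libraries were left out (1, *Hspa1a*, without heterozygous 51). Genes called between the homozygotes numbered 175, against 966 with DESeq2, 338 with limma-voom, 562 without the filter, 54 with 1 surrogate variable, 23 without wild-type 59 and homozygous mutant 46, 25 with mouse numbers as a term, 12 with *Xist* above *Ddx3y* as a term, and 20 (without homozygous mutant 43) to 697 (without wild-type 44) when single libraries were left out. In the genes called without single libraries, the median departure ran from 0.01 to 0.42 for lower and from -0.29 to 0.29 for higher genes. Over all other fits it ran from 0.11 to 0.47 and from -0.30 to 0.08.

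Among lower genes, the percentage apart from homozygous mutants alone was 58.3, against 13.6 with mouse numbers, 36.4 with *Xist* and 39.5 to 75.6 without single libraries. Apart from wild-type alone it was 25.2, against 14.3 with library totals, 12.5 with the surrogate variable, 5.00 without both doubted libraries, 9.09 with *Xist* and 4.76 to 32.3 without single libraries. Among higher genes the first was 55.6, against 34.4 with DESeq2, 84.9 with limma-voom, 35.7 with the surrogate variable, 0 without both doubted libraries, with mouse numbers or with *Xist*, and 0 to 66.1 without single libraries. The second was 27.8, against 5.56 with limma-voom, 0 without both doubted libraries or with *Xist*, and 0 to 50 without single libraries. Few genes, lower and higher together, were called with *Xist* (12), with mouse numbers (25), without both doubted libraries (23) or without homozygous mutant 47 (26). The higher genes were only a part of these, so each percentage of 0 rests on few genes. Genes outside all other libraries were 383 above and 298 below without both doubted libraries, and 215 to 467 above and 142 to 300 below without single libraries. Fewer libraries to exceed raise such counts by construction. The cause of the other shifts was not tested.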
